A study of Mus musculus with 18 samples.

Results

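The genes described here are 45 mouse genes whose products carry out mitosis and cell division, followed in the liver of mice born from frozen spermatogonial stem cells and of naturally bred control mice. The 45 were chosen by symbol for their roles, with earlier results of these data known. All 45 were found among the 32285 genes counted in each library. Liver RNA was sequenced from 18 mice of strain B6D2F1 whose genotype is labelled wild-type, in 3 groups of 6. The Space and Ground pups were offspring of germline stem (GS) cells, which are cultured spermatogonia from mice of a DBA/2 background carrying an EGFP transgene, and which had spent 6 months in frozen storage, either aboard the International Space Station (Space) or on Earth (Ground), before being thawed, transplanted into the testes of infertile W mice and passed on through matings with C57BL/6 females. The pups were 10 weeks old. The BDF1 group was wild-type mice of the same strain with the treatment given as control, and their age was not given in the sources used here. Which pups were littermates or shared a father was not given either, so the p-values measure the spread between these animals and not between independent transplantations. Whether a pup inherited the transgene was also not given. The way of breeding, and the age if it differed, cannot be told apart from the group in any comparison with BDF1.

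Mitosis is driven by the kinase Cdk1 together with A and B type cyclins, whose genes are switched on late in the cell cycle by transcription factors such as Foxm1 and Mybl2. Further kinases and motor proteins build the spindle, kinetochore proteins attach each chromosome to it, checkpoint kinases hold division until every chromosome is attached, and the anaphase promoting complex with Cdc20 and Ube2c then marks the B cyclins and other proteins for destruction so that the cell can divide. In an adult liver most hepatocytes rest outside the cycle, and these genes are barely expressed until the tissue grows or regenerates.

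Libraries 1 to 3 and 4 to 6 of every group form sets that stand apart. The labels give no sex. Counts of Xist, the RNA made from an inactivated X chromosome, lay between 0 and 187 in libraries 1 to 3 of all 3 groups and between 12218 and 21557 in libraries 4 to 6, and summed counts of Y-linked genes lay between 1822 and 2482 in the first set and between 0 and 26 in the second. The paper states that F1 males and females of each group were analysed. By these counts libraries 1 to 3 came from males and libraries 4 to 6 from females. Comparisons within numbers 4 to 6 are thus between females, and sex cannot be told apart from anything else that went with the number set. Within numbers 4 to 6, Space 4, Ground 5 and Ground 6 also stood apart in Serpina6, which encodes corticosteroid-binding globulin, at 45256, 44895 and 30939 CPM against 742 to 1003 CPM in the other libraries, and counts are also given without those 3, a choice made after seeing the data. The division genes were compared within numbers 1 to 3 and within numbers 4 to 6 as well as over all libraries. Depth was 15407000 to 20562000 counts per library, rounded to 5 digits, of which the 45 genes together took 724 to 3379. Levels are given as CPM, the usual scaling of counts to a common library size, taken here on TMM-scaled sizes, TMM being edgeR's factor for differences in composition. At this depth 3 counts, the most that a count of 0 allows, came to 0.134 to 0.234 CPM, so that many of these genes lay near the limit of detection in BDF1 liver. That floor covers counting error only. Changes are log2 differences with a standard error (SE), and a gene is called where edgeR's quasi-likelihood test gave a Benjamini-Hochberg adjusted p under 0.05 over all genes tested.

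The stretches of promoter shown next carry the letters that many of the 45 genes share. Genes used in mitosis are known for promoters with a CHR element, here searched as TTTGAA, and CCAAT boxes, here searched as CCAAT, both on either strand, a base shared by matches of both words counting for each. Among 37 of the 45 genes with an entry in the RefSeq promoter sequences (assembly GRCm38.p6, 250 bases before to 50 bases after the start), TTTGAA stood in 25 (67.6%) and CCAAT in 27 (73.0%), against 17.9% and 37.4% of all 32851 promoters of that length. Both stood in 23 of the 37 (62.2%), against 6.95% of all promoters. An E2F motif, searched as TTTCCCGC or TTTGGCGC on either strand, stood in 0 of the 37, against 1.56% of all promoters. Ccna2, Ccne2, Pbk, Aurkb, Incenp, Tpx2, Kif20a and Foxm1 had no entry. The 150 bases before the start are printed 5′ to 3′ on the strand of the gene, in lower case with TTTGAA and CCAAT (or their reverse complements TTCAAA and ATTGG) in capitals, for 4 genes with both words that rose in pups 4 to 6, for Rrm2, which rose in both sets and holds a CCAAT alone in this window, and for Tk1, which fell in pups 4 to 6 and holds neither. Their positions are chr2:164769779-164769928 (plus strand) for Ube2c, chr10:69352913-69353062 (minus strand) for Cdk1, chr7:135716380-135716529 (minus strand) for Mki67, chr4:118437344-118437493 (minus strand) for Cdc20, chr12:24708104-24708253 (plus strand) for Rrm2 and chr11:117826015-117826164 (minus strand) for Tk1. A match is a description of the letters and not of a bound site. All 45 genes are protein-coding in GENCODE M21 on mm10, where Ube2c (ENSMUSG00000001403) spans chr2:164769898-164778822, Cdk1 (ENSMUSG00000019942) chr10:69335146-69352938, Mki67 (ENSMUSG00000031004) chr7:135689784-135716361, Cdc20 (ENSMUSG00000006398) chr4:118432901-118437352, Rrm2 (ENSMUSG00000020649) chr12:24708241-24714146 and Tk1 (ENSMUSG00000025574) chr11:117815526-117826092.
Ube2c: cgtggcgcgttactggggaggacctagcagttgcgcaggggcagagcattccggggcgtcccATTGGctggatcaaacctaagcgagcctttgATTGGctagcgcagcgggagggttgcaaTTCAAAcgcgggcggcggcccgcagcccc
Cdk1: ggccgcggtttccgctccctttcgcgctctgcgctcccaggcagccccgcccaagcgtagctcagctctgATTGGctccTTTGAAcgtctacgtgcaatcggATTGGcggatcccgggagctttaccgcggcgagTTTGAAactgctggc
Mki67: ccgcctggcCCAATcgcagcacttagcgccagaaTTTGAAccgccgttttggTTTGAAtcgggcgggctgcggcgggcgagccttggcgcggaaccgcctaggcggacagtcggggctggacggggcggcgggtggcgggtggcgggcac
Cdc20: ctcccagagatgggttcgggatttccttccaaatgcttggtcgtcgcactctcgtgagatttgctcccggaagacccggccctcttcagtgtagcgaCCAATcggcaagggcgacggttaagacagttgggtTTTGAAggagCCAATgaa
Rrm2: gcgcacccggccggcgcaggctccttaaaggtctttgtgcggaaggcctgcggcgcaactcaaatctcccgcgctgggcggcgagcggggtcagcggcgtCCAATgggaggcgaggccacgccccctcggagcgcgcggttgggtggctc
Tk1: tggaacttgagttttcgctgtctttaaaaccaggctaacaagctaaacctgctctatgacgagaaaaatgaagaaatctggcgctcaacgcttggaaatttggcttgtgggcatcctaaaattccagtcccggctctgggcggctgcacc

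The division genes stood farthest from BDF1 in the pups of numbers 4 to 6. The summed level of the 44 genes other than Tk1, which alone made up a large part of the total in BDF1 liver, was 47.3 to 226 CPM in the 6 pups of numbers 4 to 6, with a median of 105.7 CPM, and 25.5 to 29.8 CPM in the 3 BDF1 livers of those numbers. In numbers 1 to 3 it was 29.3 to 35.1 CPM in the pups and 22.2 to 27.9 CPM in BDF1. On this sum every pup lay above every BDF1 liver of its own set, by a wide margin in numbers 4 to 6 and by a narrow one in numbers 1 to 3. With Tk1 included the groups of numbers 4 to 6 overlapped, at 80.7 to 264 CPM in pups and 68.9 to 109 CPM in BDF1. In numbers 1 to 3 that full sum was 46.2 to 65.5 CPM in pups and 39.7 to 45.6 CPM in BDF1. The choice to set Tk1 apart was made after its values were seen. Between 5 and 11 of the 45 genes had no count at all in a BDF1 liver, 2 to 5 in a pup of numbers 1 to 3, and 0 to 2 in a pup of numbers 4 to 6. In whole liver, more dividing cells and more of these RNAs in each dividing cell cannot be told apart.

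**Figure D1:**
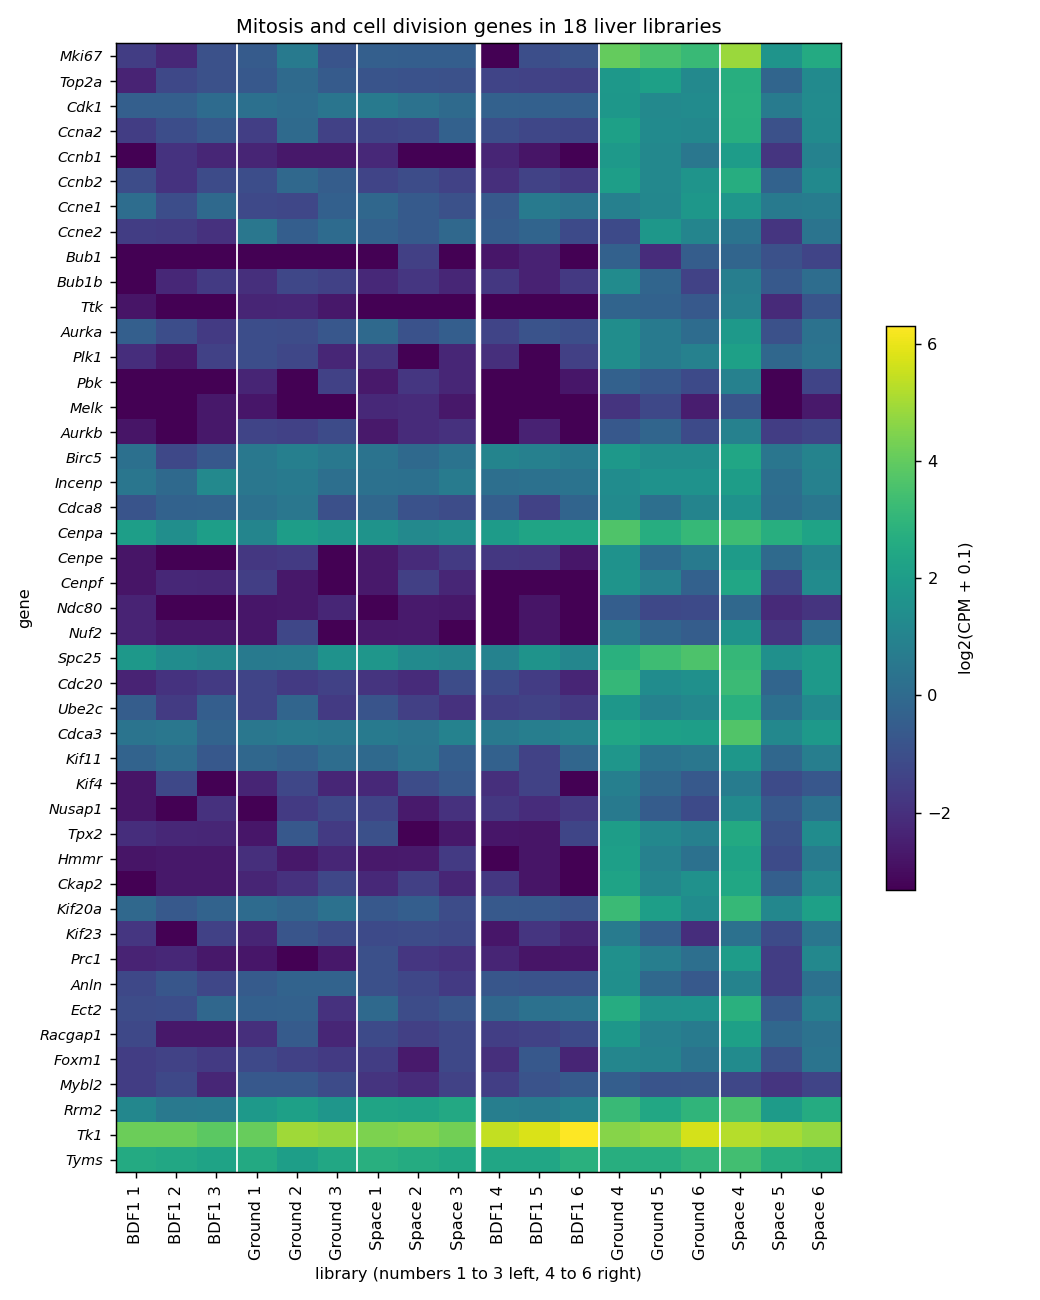
Level of each of the 45 division genes (rows, ordered by role) in each of the 18 liver libraries (columns), as log2 of CPM plus 0.1, with numbers 1 to 3 on the left and 4 to 6 on the right and brighter colours for higher levels. The Ground and Space columns of numbers 4 to 6 are the bright ones, Space 5 least so, and Tk1 is bright in every column.

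Over all 18 libraries, 29 of the 45 genes passed the filter on low counts. A gene that passed only because of the group in which it was high had to differ, so the counts over tested genes are descriptions. The 12 pups exceeded the 6 BDF1 livers in 7 of the 29 and were below them in none, while 7.16% of all 12847 genes tested were called, 3.61% higher and 3.55% lower. The median change of the 29 was 1.54, with 28 above 0, against 0.0082 over all genes tested. The 7 were Rrm2 (1.81 ± 0.27 SE, adjusted p = 0.0014), Mki67 (4.58 ± 1.15, adjusted p = 0.0234), Top2a (2.76 ± 0.72, adjusted p = 0.0274), Ckap2 (4.57 ± 1.19, adjusted p = 0.0279), Cdk1 (1.54 ± 0.41, adjusted p = 0.0308), Ccnb2 (2.75 ± 0.76, adjusted p = 0.0353) and Cdc20 (3.61 ± 1.07, adjusted p = 0.0493). Only the call on Rrm2, the small subunit of the reductase that makes deoxynucleotides, held when any 1 of the 18 libraries was left out. Without Space 2 or Space 3 there were 12 calls and without Ground 1 or Ground 3 there were 11, but 4 without BDF1 3, 2 without BDF1 1, 4 or 6, and 1 without BDF1 2 or 5, while over all genes the 18 such fits gave 391 to 964 calls. Without Space 4, Ground 5 and Ground 6 there were 4. With the replicate number as a block 11 were called, all 7 among them, with Racgap1, Tpx2, Plk1 and Cenpe added, where 10.4% of all genes were called. With the number set as a covariate those 11 were called, and Kif20a, Birc5, Cdca3, Ccna2 and Ccne2 besides, where 15.3% of all genes were called.

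Mki67, Top2a and Rrm2 were the genes for which each of the 12 pups lay above each of the 6 BDF1 livers, a pattern held by 0.287% of the 21614 genes with any count, while the reverse, held by 0.245%, was found for no division gene. Mki67 encodes the Ki-67 protein that coats chromosomes in mitosis and is the usual marker of cycling cells. In the Space pups it was at 0.647, 0.629 and 0.645 CPM in libraries 1 to 3 and at 29.4, 3.07 and 5.84 CPM in libraries 4 to 6. In the Ground pups it was at 0.585, 1.42 and 0.469 CPM and then at 16.5, 11.7 and 9.19 CPM, and in BDF1 at 0.234, 0.11 and 0.418 CPM and then at 0, 0.403 and 0.454 CPM. The pups of numbers 4 to 6 were above every other library, and the pups of numbers 1 to 3 were only just above BDF1. Top2a, the topoisomerase that untangles sister chromatids, was at 0.43 to 0.897 CPM in the pups of numbers 1 to 3, at 0.783 to 6.56 CPM in those of numbers 4 to 6 and at 0.0937 to 0.418 CPM in all BDF1 livers. Rrm2 was at 4.83, 4.59, 5.48, 11.5, 3.85 and 6.01 CPM in Space 1 to 6, at 3.61, 4.38, 3.28, 9.22, 5.4 and 7.74 CPM in Ground 1 to 6, and at 2.11, 1.37, 1.46, 1.62, 1.52 and 1.81 CPM in BDF1 1 to 6. Its lowest pup, Ground 3, was above its highest BDF1 liver.

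**Figure D2:**
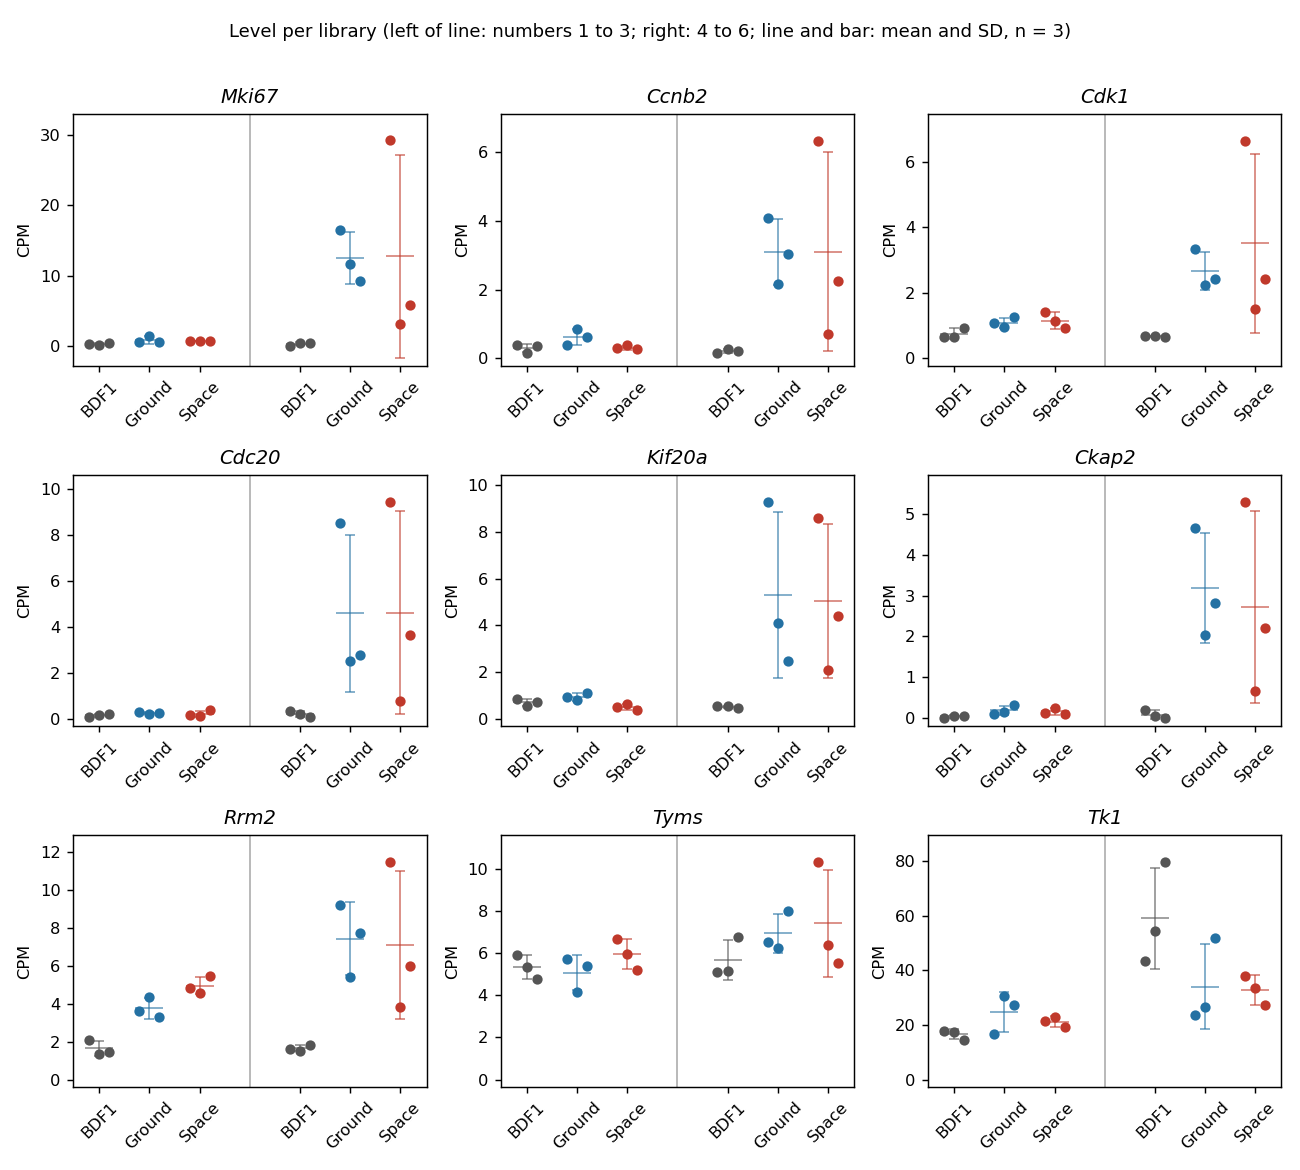
Level in CPM (linear axis) of 9 division genes, 1 point per liver library, with lines and bars for the mean and SD of the 3 libraries of a group in numbers 1 to 3 (left) and 4 to 6 (right). Mki67 and Rrm2 are higher in every pup than in every BDF1 liver, Ccnb2, Cdk1, Cdc20, Kif20a and Ckap2 rise in the pups of numbers 4 to 6, Tyms overlaps between pups and BDF1, and Tk1 is highest in BDF1 4 to 6.

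Within numbers 1 to 3, 1 of the 39 genes tested was called and it was higher, Rrm2, at 1.38 ± 0.30 SE (edgeR, adjusted p = 0.0140), where 4.69% of 13356 genes were called, 2.62% higher and 2.07% lower. The call was lost without BDF1 2 or BDF1 3, while Rrm2 was joined by a second gene without Ground 4. The 39 changes had a median of 0.43 against 0.0015 over all genes, and 32 were above 0. An unadjusted p under 0.05 was found for 3 of the 39, against 20% of all genes. For 6 of the 45 genes (Mki67, Top2a, Ccne2, Aurkb, Ckap2 and Rrm2) every pup lay above every BDF1 liver, against 4.98% of all genes, and for none did every pup lie below, against 4.2%. Values for genes that were high in the other set were small or had wide errors here: Mki67 1.48 ± 0.93 (adjusted p = 0.407), Cdk1 0.57 ± 0.39 (adjusted p = 0.454), Ccnb2 0.52 ± 0.63 (adjusted p = 0.705), Kif20a -0.04 ± 0.48 (adjusted p = 0.975) and Ube2c -0.46 ± 0.61 (adjusted p = 0.732).

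Within numbers 4 to 6, 31 of the 39 genes tested were higher in pups and 1 was lower, against 18.8% of 13356 genes called, 9.59% higher and 9.16% lower. The median change was 2.61, against 0.0057 over all genes, and 37 of the 39 were above 0. For 29 of the 45 genes every pup lay above every BDF1 liver, against 5.52% of all genes, and for none did every pup lie below, against 5.65%. Pooling counts over libraries, with no filter, 43 of the 45 genes had a ratio of pups to BDF1 over 1, 39 over 2 and 30 over 4, with a median of 7.27 when the 3 genes without a count in BDF1 stood at their lower bound. The same counts in numbers 1 to 3 were 38 over 1 and 14 over 2, with a median of 1.54. There the 2 genes without a count in BDF1 also stood at their lower bound, which put Bub1 at 0.711 and so under 1. Pooled ratios were not taken over all genes, so these counts have no share beside them. Leaving out each library in turn gave 25 to 38 calls, while over all genes the same fits gave 1198 to 2985. Of the 31 higher genes 21 were called in each of those 18 fits, and the losses of the others are given with their values. Without Space 4, Ground 5 and Ground 6, 33 of 43 tested were called against 13.6% of all genes, 30 of them among the 32, with Incenp and Kif4 lost.

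**Figure D3:**
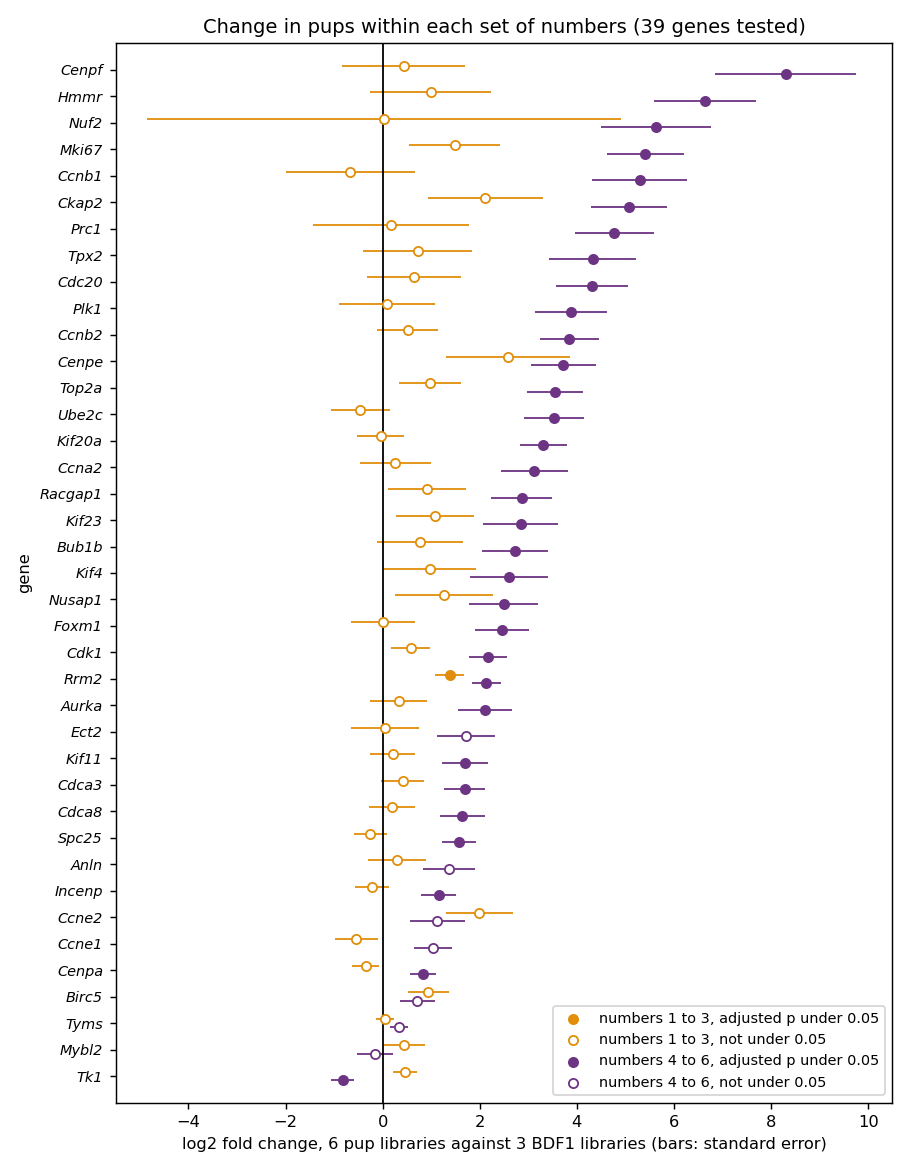
Log2 change from BDF1 to pups for the 39 division genes tested, within numbers 1 to 3 and within numbers 4 to 6, with bars of 1 SE (edgeR). The value of Cenpf, which had no count in BDF1 4 to 6, is a fitted one and no measure of its fold. In numbers 4 to 6 all but Mybl2 and Tk1 lie above 0, and 31 are called higher and Tk1 lower, whereas in numbers 1 to 3 Rrm2 alone is called.

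The 2 genes of chromosome structure both rose in pups 4 to 6. Mki67 was higher by 5.41 ± 0.80 (adjusted p = 0.000382) and Top2a by 3.55 ± 0.59 (adjusted p = 0.000921).

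Of the 6 genes for Cdk1 and its cyclins, 4 rose. Cdk1, the kinase at the centre of mitotic entry, was at 6.64, 1.5 and 2.43 CPM in Space 4 to 6, at 3.33, 2.24 and 2.42 CPM in Ground 4 to 6 and at 0.689, 0.672 and 0.655 CPM in BDF1 4 to 6, a rise of 2.17 ± 0.39 (adjusted p = 0.00169). The lowest pup was Space 5, still above the highest BDF1 liver. Ccnb2, a B cyclin, was at 6.32, 0.722 and 2.25 CPM in Space, 4.08, 2.17 and 3.04 CPM in Ground and 0.148, 0.269 and 0.202 CPM in BDF1 of those numbers, a rise of 3.85 ± 0.61 (adjusted p = 0.000661). Ccna2, the A cyclin of S phase and mitosis, was at 6.48, 0.421 and 2.31 CPM in Space, 4.32, 2.37 and 2.14 CPM in Ground and 0.394, 0.313 and 0.302 CPM in BDF1, a rise of 3.12 ± 0.68 (adjusted p = 0.00567). For Ccna2 the pup Space 5 came close to BDF1 without overlapping it, and 12.5% of its exon bases are shared with Exosc9 on the other strand. Ccnb1, the main B cyclin, had 199 counts in the 6 pups and 3 in the 3 BDF1 livers, a ratio of 44.3 per scaled count (exact 95% interval 14.9 to 217, which like the other intervals of ratios covers counting error only). The E cyclins, which act earlier, at the start of S phase, did not pass the test: Ccne1 was at 1.03 ± 0.39 (adjusted p = 0.0762) and Ccne2 at 1.13 ± 0.57 (adjusted p = 0.182).

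Among the kinases of the spindle checkpoint Bub1, Bub1b and Ttk, only Bub1b had counts enough for the test, and it rose by 2.73 ± 0.68 (adjusted p = 0.0116), a call lost without BDF1 5 (adjusted p = 0.0712). Bub1 had 45 counts in the pups of numbers 4 to 6 and 3 in BDF1, a ratio of 10.02 (3.22 to 50.4). Ttk had 65 counts in the pups and 0 in BDF1, which with a floor of 3 counts over the group made it at least 14.5-fold higher. Of the other mitotic kinases Aurka, Plk1, Pbk and Melk, the first pair was tested and both rose. Plk1, which acts from mitotic entry to cytokinesis, was at 4.37, 0.843 and 1.21 CPM in Space 4 to 6, 2.51, 1.45 and 1.8 CPM in Ground and 0.148, 0 and 0.252 CPM in BDF1, a rise of 3.89 ± 0.74 (adjusted p = 0.00228). Aurka, the kinase of the spindle poles, was at 3.59, 0.421 and 1.16 CPM in Space, 2.57, 1.45 and 0.967 CPM in Ground and 0.295, 0.448 and 0.403 CPM in BDF1, a rise of 2.11 ± 0.56 (adjusted p = 0.0167). Its groups overlapped, since Space 5 lay below BDF1 5, and the call was lost without any 1 of the BDF1 livers of those numbers, which gave adjusted p values up to 0.0770. Pbk was at a ratio of 35.4 (6.09 to 1425) and Melk was at least 3.56-fold higher.

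The chromosomal passenger complex, made of the kinase Aurkb with Incenp, Birc5 and Cdca8, places Aurora B at the centromere and later at the midzone. Cdca8 (1.64 ± 0.47, adjusted p = 0.0227) and Incenp (1.16 ± 0.36, adjusted p = 0.0333) rose, and Birc5 was at 0.71 ± 0.36 (adjusted p = 0.185). The call on Cdca8 was lost without BDF1 4 or BDF1 5, with adjusted p values up to 0.122. That on Incenp was lost without Space 4, Ground 6 or any 1 of BDF1 4 to 6, with values up to 0.111, and with the replicate block (adjusted p = 0.0671). Aurkb was too low for the test, with 58 counts in pups and 2 in BDF1, a ratio of 19.4 (5.13 to 164).

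All 5 kinetochore and centromere genes tested rose, and Ndc80, which was not tested, had a ratio of 24.7 (4.17 to 1002). Cenpe, a motor that draws chromosomes to the spindle equator, was at 3.83, 0.903 and 1.97 CPM in Space 4 to 6, 2.92, 0.921 and 1.45 CPM in Ground and 0.197, 0.179 and 0.0504 CPM in BDF1, a rise of 3.72 ± 0.67 (adjusted p = 0.00156) with every pup far above every BDF1 liver. Spc25, a part of the Ndc80 complex, was at 8.35, 2.77 and 3.7 CPM in Space, 6.77, 9.87 and 12.2 CPM in Ground and 1.82, 3 and 2.07 CPM in BDF1, a rise of 1.57 ± 0.35 (adjusted p = 0.00588) in which Space 5 overlapped BDF1 5. Cenpf had 201 counts in pups and 0 in BDF1 4 to 6, at least 44.8-fold higher (adjusted p = 0.00176). Nuf2, the partner of Ndc80, had 103 counts against 1, a ratio of 68.8 (12.1 to 2744). Cenpa, the histone that marks centromeres, had the smallest change of the 31 that rose, 0.83 ± 0.27 (adjusted p = 0.0401). Its call was lost without Space 3, Space 4, Ground 4, Ground 6 or any 1 of BDF1 4 to 6, with adjusted p values up to 0.153, and with the replicate block (adjusted p = 0.0888).

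The 3 genes that act in ordered protein degradation rose together. Cdc20, which activates the anaphase promoting complex, was at 9.45, 0.783 and 3.64 CPM in Space 4 to 6, 8.52, 2.5 and 2.76 CPM in Ground and 0.345, 0.224 and 0.101 CPM in BDF1, a rise of 4.32 ± 0.74 (adjusted p = 0.00112). Ube2c, the ubiquitin-conjugating enzyme that works with the complex, was at 6.64, 1.08 and 2.25 CPM in Space, 3.33, 1.84 and 2.14 CPM in Ground and 0.246, 0.269 and 0.202 CPM in BDF1, a rise of 3.52 ± 0.62 (adjusted p = 0.00133). Neither gene overlapped between pups and BDF1. Of the exon bases of Ube2c 22.8% lie opposite Tnnc2, and whether the counting used strand was not given in the sources used here. Cdca3 rose by 1.69 ± 0.42 (adjusted p = 0.0109), a call lost without BDF1 4 (adjusted p = 0.0559).

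All 6 spindle and motor genes were called higher with all libraries in the fit, 3 of them on calls that single libraries removed. Tpx2, which activates Aurora A on the spindle, was at 5.62, 0.421 and 2.49 CPM in Space 4 to 6, 3.97, 2.17 and 1.73 CPM in Ground and 0.0492, 0.0448 and 0.302 CPM in BDF1, a rise of 4.32 ± 0.89 (adjusted p = 0.00395). Ckap2, a protein of spindle microtubules, was at 5.31, 0.662 and 2.2 CPM in Space, 4.67, 2.04 and 2.83 CPM in Ground and 0.197, 0.0448 and 0 CPM in BDF1, a rise of 5.07 ± 0.78 (adjusted p = 0.000526). Again no pup fell to the level of a BDF1 liver. Hmmr, a further spindle protein, had the largest ratio of the genes with a count in BDF1, 139.6 (24.8 to 5541), from 209 counts in pups and 1 in BDF1. The motors Kif11 (1.70 ± 0.47, adjusted p = 0.0202) and Kif4 (2.61 ± 0.80, adjusted p = 0.0328) and the microtubule binding Nusap1 (2.50 ± 0.71, adjusted p = 0.0229) were the 3 that depended on single libraries. Kif11 was not called without BDF1 4 or BDF1 5 (adjusted p up to 0.111), Kif4 without Space 4, Ground 4 or any 1 of BDF1 4 to 6 (up to 0.113), and Nusap1 without any 1 of BDF1 4 to 6 (up to 0.104).

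Of the 6 cytokinesis genes, 4 rose. Kif20a, a motor of the midzone where the daughter cells part, was at 8.59, 2.11 and 4.39 CPM in Space 4 to 6, 9.28, 4.08 and 2.49 CPM in Ground and 0.542, 0.537 and 0.454 CPM in BDF1, a rise of 3.31 ± 0.48 (adjusted p = 0.000370) with no overlap. Racgap1, a regulator of the contractile ring, was at 4.37, 0.843 and 1.16 CPM in Space, 3.33, 1.78 and 1.52 CPM in Ground and 0.246, 0.269 and 0.353 CPM in BDF1, a rise of 2.86 ± 0.63 (adjusted p = 0.00566). Prc1, which bundles midzone microtubules, rose by 4.77 ± 0.81 (adjusted p = 0.00107) and the motor Kif23 by 2.85 ± 0.78 (adjusted p = 0.0184). The call on Kif23 was lost without any 1 of BDF1 4 to 6, with adjusted p values up to 0.0879, and with the replicate block (adjusted p = 0.0539). Anln (1.36 ± 0.53, adjusted p = 0.0840) and Ect2 (1.71 ± 0.59, adjusted p = 0.0537) did not pass. For Kif20a 29.3% of exon bases lie opposite Cdc23, and for Prc1 11.1% opposite Rccd1. Outside this group the same held for Kif4 (15.1%, Pdzd11) and Ccne2 (17.4%, Ints8). Had the counting not used strand, reads from such shared bases could not be told apart from those of the opposite gene, so the values of Ccna2, Ccne2, Ube2c, Kif4, Kif20a and Prc1 carry that doubt. Smaller stretches lie opposite another gene in Plk1 (7.09%), Cdca8 (4.48%), Nusap1 (4.24%), Cdc20 (2.84%) and Tk1 (1.6%), to which it applies as well.

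Of the 2 transcription factors of the mitotic genes 1 was called, and the difference between them was not tested. Foxm1 rose by 2.46 ± 0.56 (adjusted p = 0.00663). Mybl2 was at -0.16 ± 0.37 (adjusted p = 0.800), with 0.181 to 0.642 CPM in pups 4 to 6 and 0.246 to 0.554 CPM in BDF1 4 to 6.

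Of the 3 genes for deoxynucleotide supply, Rrm2 rose by 2.13 ± 0.30 (adjusted p = 0.000262), Tyms was at 0.33 ± 0.19 (adjusted p = 0.224) and Tk1 fell. Tk1, thymidine kinase, was at 37.9, 33.5 and 27.1 CPM in Space 4 to 6, at 23.6, 26.5 and 51.8 CPM in Ground 4 to 6 and at 43.3, 54.3 and 79.4 CPM in BDF1 4 to 6, a change of -0.82 ± 0.23 (adjusted p = 0.0217). Ground 6 lay inside the BDF1 range, and the call was lost without BDF1 5 or BDF1 6, with adjusted p values up to 0.150. In numbers 1 to 3 it was at 16.5 to 30.4 CPM in pups and 14.6 to 17.7 CPM in BDF1, a change of 0.46 ± 0.25 (adjusted p = 0.321). Tk1 was described in detail after its values were seen.

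Among the genes with a promoter entry, 21 of the 22 tested that hold both TTTGAA and CCAAT were higher in pups 4 to 6, with a median change of 2.86, and none was lower. The 3 tested with CCAAT alone (Ccnb1, Cenpe and Rrm2) were all higher. Of the pair with TTTGAA alone, Ndc80 was not tested and Anln was not called. Of the 7 tested with neither (Ccne1, Birc5, Nuf2, Nusap1, Mybl2, Tk1 and Tyms), 2 were higher and 1 was lower, with a median of 0.71. Of all genes 9.59% were higher and 9.16% lower in that comparison. These are counts in a list chosen for function, with no test, and the absence of these letters from 300 bases says nothing of sites elsewhere.

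The difference between the sets, tested as the change in numbers 4 to 6 minus that in numbers 1 to 3, was called for 5 of the 39 genes, 4 positive and 1 negative, against 5.1% of all genes, 2.7% positive and 2.4% negative. Ube2c (3.98 ± 0.88, adjusted p = 0.0158), Kif20a (3.36 ± 0.69, adjusted p = 0.0100), Ccnb2 (3.33 ± 0.91, adjusted p = 0.0428) and Spc25 (1.82 ± 0.48, adjusted p = 0.0369) changed more in numbers 4 to 6, and Tk1 (-1.28 ± 0.34, adjusted p = 0.0398) changed the other way. A further set of genes had large differences with wide errors, among them Mki67 (3.93 ± 1.42, adjusted p = 0.119) and Cdc20 (3.68 ± 1.37, adjusted p = 0.130), and 25 of the 39 had an unadjusted p under 0.05, against 20.9% of all genes. With the replicate number as a block, Ube2c (adjusted p = 0.0264) and Kif20a (adjusted p = 0.00999) were the 2 calls, where 2.49% of all genes were called. Without Space 4, Ground 5 and Ground 6 there were 7, against 6.35% of all genes. The count moved with single libraries: it was 12 without Space 5, 3 without Space 1, Ground 1, Ground 2, Ground 3, Ground 6, BDF1 4 or BDF1 5, 2 without Space 2, Space 3, BDF1 1, BDF1 2 or BDF1 6, and 1 without BDF1 3, while 4.98% of all genes were called without Space 5, 2.15% without BDF1 3, and 293 to 1054 genes over the 18 such fits. The call on Kif20a was kept in all 18. That on Ube2c was lost without BDF1 3 (adjusted p = 0.0589), that on Spc25 in 10 of the 18, that on Ccnb2 in 12 and that on Tk1 in 13. For Rrm2 the difference was 0.75 ± 0.41 (adjusted p = 0.319).

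The sides of that difference rested on 12 pups and on 6 BDF1 livers, so a change of the same size is more readily called in pups. From numbers 1 to 3 to numbers 4 to 6 the median change of the 39 was 2.56 in pups and 0.089 in BDF1. Over all genes it was 0.0030 and 0.0093. Between numbers 4 to 6 and numbers 1 to 3, 35 of the 39 genes were higher in the pups of numbers 4 to 6 and none was lower, against 34.3% of all genes called, 17.7% higher and 16.6% lower. Ccne2, Kif23, Mybl2 and Tyms were the 4 not called. In BDF1 1 of the 39 was higher in numbers 4 to 6, against 14.6% of all genes called, 7.29% higher and 7.33% lower, and it was Tk1, at 14.6 to 17.7 CPM in numbers 1 to 3 and 43.3 to 79.4 CPM in numbers 4 to 6 (1.83 ± 0.29, adjusted p = 0.000444). A second gene was called without Space 4, Space 5 or BDF1 1.

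The Space and Ground pups were each set against the same 6 BDF1 livers, so their values are not independent of each other. Over all libraries 3 of 29 genes were higher in Space pups, Rrm2 (1.86 ± 0.29, adjusted p = 0.0025), Mki67 (4.58 ± 1.20, adjusted p = 0.0417) and Cdk1 (1.69 ± 0.45, adjusted p = 0.0451), against 3.8% of all genes called, 2.34% higher and 1.46% lower. In Ground pups 4 were higher, Rrm2 (1.76, adjusted p = 0.0051), Mki67 (4.57, adjusted p = 0.0428), Ckap2 (4.69, adjusted p = 0.0456) and Top2a (2.82, adjusted p = 0.0485), against 3.81% called, 1.76% higher and 2.05% lower, and no division gene was lower in either. With the replicate number as a block these counts were 8 and 11, against 6.02% and 6.56% of all genes. With the number set as a covariate more were called in each, as given below, against 10.4% and 11.2% of all genes. In the fit of groups alone the count for Space was 1 without Space 4, 5 or 6 or any BDF1 liver, Rrm2 each time, and 5 without Ground 2. For Ground it was 7 without Space 4, 2 without Space 2, Ground 3 or Ground 4, and 1 without Space 6, Ground 5, Ground 6 or any BDF1 liver. Over all genes leaving out each library gave 231 to 593 calls for Space and 141 to 667 for Ground. Without Space 4, Ground 5 and Ground 6 the count was 1 in each, against 3.26% and 2.33% of all genes.

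Within numbers 4 to 6, 26 of 39 genes were higher in the Space pups, against 11.9% of all genes called, 6.43% higher and 5.49% lower, and 30 in the Ground pups, against 15.2% called, 7.86% higher and 7.35% lower. None was lower in either with TMM factors. Scaled by total counts, 25 were higher and 1 was lower in each. Of all genes 337 were then higher and 4641 lower for Space, and 402 and 5734 for Ground. With TMM factors the count for Space was 17 without Space 4, where leaving out each library gave 636 to 1940 calls over all genes. Without Space 4, Ground 5 and Ground 6 the count was 20 for Space, against 9.62% of all genes. For Ground it was 34, against 7.56%, but 1 Ground library is left in that set and is assumed to vary like the other groups. Within numbers 1 to 3, Rrm2 was the 1 gene higher in Space pups, against 4.64% of all genes called, 2.85% higher and 1.8% lower, and the call was lost without Space 3, BDF1 2 or BDF1 3. In Ground pups none was called, against 1.92% of all genes, 1.14% higher and 0.786% lower, and Rrm2 was at 1.18 (adjusted p = 0.077). Without Space 4 or Space 5 the count was 1, where leaving out each library gave 35 to 384 calls over all genes. DESeq2 called 1 gene there, against 4.63% of all genes, and limma voom 3, against 8.21%, and 4 of the 39 had an unadjusted p under 0.05 in edgeR, against 15.9% of all genes.

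Between Space and Ground pups no division gene was called by edgeR, DESeq2 or limma voom over all libraries, and none of the 29 had an unadjusted p under 0.05, against 9.23% of all genes, while 0% of all genes were called. The changes had a median of -0.07. Rrm2 differed by 0.10 ± 0.28 SE, Cdk1 by 0.30 ± 0.43, Ccnb2 by -0.15 ± 0.70 and Mki67 by 0.00 ± 0.95, so that for Cdk1, Ccnb2 and Mki67 differences of 1 on the log2 scale or more lay within 2 SE. Within numbers 1 to 3 none was called either, against 0.00749% of all genes, nor within numbers 4 to 6, against 0.0225%. The smallest unadjusted p in numbers 4 to 6 was that of Spc25 at -0.98 (adjusted p = 0.264).

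The pups of numbers 4 to 6 differed more among themselves in the summed level of the 44 genes other than Tk1 (SD 63.0 CPM, n = 6) than the pups of numbers 1 to 3 did (SD 2.49 CPM, n = 6), and BDF1 4 to 6 (SD 2.34 CPM, n = 3) did not differ more than BDF1 1 to 3 (SD 2.84 CPM, n = 3). Space 4 was the highest of all 18 libraries for 34 of the 45 genes, Ground 4 for 7, Ground 6 for 2, and Ground 5 and BDF1 6 for 1 each. Space 5 was the lowest of the 6 pups for 38. Highest and lowest libraries were not counted over all genes, so these counts have no share beside them. The number of genes above every BDF1 liver of the same set was 43 in Space 4, 31 in Space 5, 40 in Space 6 and 42 in each of Ground 4, 5 and 6, where 26 to 33.8% of all genes were so placed. It was 20 to 26 in the 6 pups of numbers 1 to 3, where 24.6 to 30% of all genes were. Every pup liver therefore stood above the share over all genes, and Space 5 was the pup of numbers 4 to 6 nearest to BDF1. Without Space 4 the pooled ratios in numbers 4 to 6 were over 1 for 43 of the 45, over 2 for 38 and over 4 for 27, with a median of 6.43. These ratios too were not taken over all genes.

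**Figure D4:**
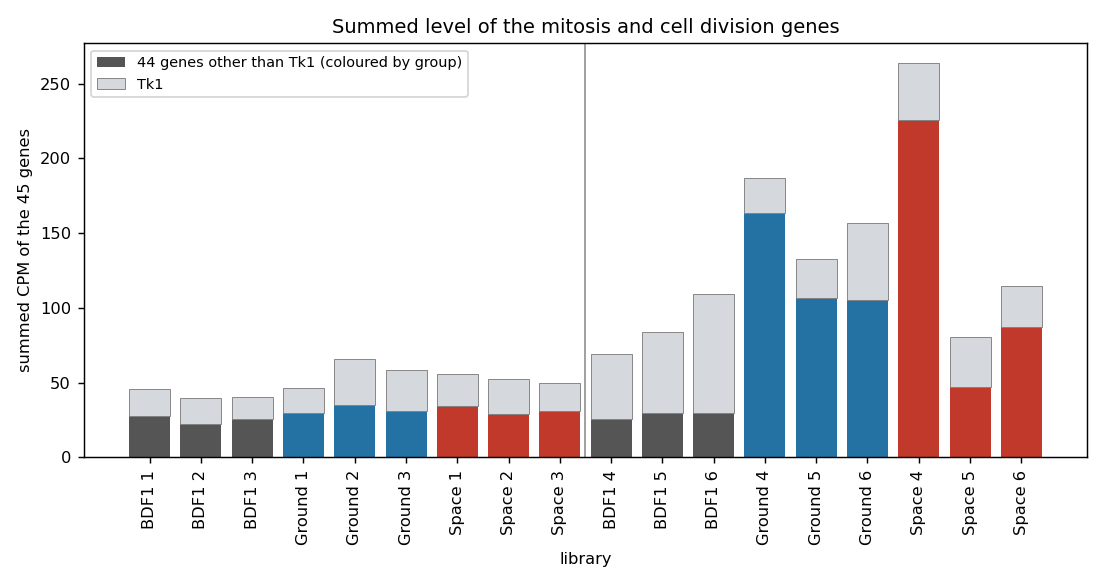
Summed level in CPM of the division genes in each of the 18 liver libraries, as stacked bars of the 44 genes other than Tk1 (coloured by group) and of Tk1 (grey). Without Tk1, the 6 pups of numbers 4 to 6 lie between 47.3 and 226 CPM, above all other libraries, which lie between 22.2 and 35.1 CPM.

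Compared per kilobase of exon, so that levels can be set between genes, Tk1 had the highest level of the 45 in pups 4 to 6, at 5.83 CPM per kb, followed by Rrm2 at 2.48, Spc25 at 2.37, Ccnb2 at 1.73 and Cdc20 at 1.71. Mki67 was ninth in that order, at 1.04 CPM per kb, and 26th in BDF1 4 to 6, at 0.0401.

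Other genes of division, taken from a list of 60 that holds none of the 45, were partly higher in pups 4 to 6. Of 40 tested, 19 were higher and 1 was lower, with a median change of 1.05, against the 9.59% higher and 9.16% lower of all genes. Kif2c, a depolymerase of kinetochore microtubules, was at 4.66 (adjusted p = 0.000353), Ckap2l, a spindle protein, at 5.74 (adjusted p = 0.00123) and Ccnf, cyclin F, at 2.44 (adjusted p = 0.00164). Zwint, a kinetochore protein, was the 1 lower, at -0.38 (adjusted p = 0.00501). Of 23 genes for G1 cyclins, their kinases, E2F and Rb family factors, subunits of the MuvB complex that binds them, and Myc, 3 were higher and 1 was lower with a median of 0.017, shares near those of all genes. The higher ones were Lin9 (0.73, adjusted p = 0.0192), Myc (1.22, adjusted p = 0.0399) and E2f1 (0.70, adjusted p = 0.0446) and the lower one Rbl2 (-0.58, adjusted p = 0.00126). Of 9 inhibitors of the cycle tested, Cdkn1a, which encodes p21, was higher at 2.27 (adjusted p = 0.0061) and Wee1, the kinase that holds Cdk1 inactive, was lower at -0.83 (adjusted p = 0.0089), again shares near those of all genes. In numbers 1 to 3 no gene of the first pair of lists was called, and Wee1 (1.28, adjusted p = 0.0082) and Ccng2 (0.59, adjusted p = 0.0413) of the inhibitors were higher. The change in Wee1 differed between the sets by -2.10 (adjusted p = 0.00149).

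Genes of other cell types were read in the same libraries, since blood and immune cells also divide. Hepatocyte markers, which the label liver predicts, were abundant, with Alb at 17.6 to 24.1% of all counts in pups 4 to 6 and 6.72 to 8.03% in BDF1 4 to 6, a difference in composition between those groups. Among the pups Alb did not follow the division genes. It took 18.9, 17.6 and 19.4% in Space 4 to 6 and 18.8, 20.8 and 24.1% in Ground 4 to 6. The genes other than Tk1 summed there to 226, 47.3 and 87.2 CPM and to 163, 106 and 105 CPM. Of the 11 hepatocyte markers tested in numbers 4 to 6, 5 were higher in pups, Alb, Apoa1, Serpina1a, Fgb and Asgr1, and 1 was lower, Cps1, with a median change of 0.31, against the 9.59% higher and 9.16% lower of all genes, which also hold beside the counts of the next list. The summed level of 10 erythroid genes was 105 to 674 CPM in pups 4 to 6, highest in Space 4, and 43.3 to 96.7 CPM in BDF1 4 to 6, where 2 of the 10 were at 0. In numbers 1 to 3, where the division genes were low, it was 246 to 362 CPM in pups and 181 to 294 CPM in BDF1. Of the 5 erythroid genes tested, the globin genes Hbb-bs (3.15, adjusted p = 0.00501) and Hba-a1 (2.92, adjusted p = 0.00546) were higher, Car1 was lower (-0.85, adjusted p = 0.00452), and Alas2 (1.30, adjusted p = 0.0714) and the erythroid transcription factor Klf1 (-0.49, adjusted p = 0.106) were not called. In numbers 4 to 6 the summed level of 10 neutrophil and marrow myeloid genes was 2.51 to 5.95 CPM in pups against 0.443 to 0.907 CPM in BDF1, where 4 of the 10 were at 0. That of 11 Kupffer cell genes was 195 to 314 CPM against 111 to 240 CPM. In numbers 1 to 3 the myeloid sum was 0.844 to 4.24 CPM in pups and 0.562 to 4.18 CPM in BDF1. The Kupffer cell sum there was 120 to 303 CPM and 115 to 184 CPM. The next values are again for numbers 4 to 6. The T and NK cell genes were at 2.37 to 4.54 CPM against 1.72 to 4.30 CPM and the B cell genes at 3.44 to 7.34 CPM against 3.49 to 3.63 CPM. Haploid male germ cell genes reached 60.2 CPM in Space 6, a library with 12218 counts of Xist and 0 of Y-linked genes. They were at 6.74 CPM in BDF1 3 and at 0.101 to 0.313 CPM in BDF1 4 to 6. Spermatocyte and spermatogonium genes were also highest in Space 6, at 3.35 CPM, against 0.0896 to 0.197 CPM in BDF1 4 to 6. The source of these germ cell RNAs was not tested. The part of any of these cell types in the rise of the division genes was not tested either. Without Space 4 and Space 6, 21 of the genes were called in numbers 4 to 6, of which 19 had been called with them, and the calls on Ccna2, Tpx2, Aurka and Tk1 were among those lost.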

How the data were processed

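Per the labels, the authors made libraries from liver RNA of 18 mice with a stranded mRNA kit and sequenced them as read pairs. The study's general RNA-seq methods name another stranded kit and single reads, and the labels were followed here. The submitters' processing notes name bcl2fastq 2.20, cutadapt 4.6, HISAT2 2.2.1, HTSeq 2.0.2 and the build mm10. The deposited values are raw counts per gene from the authors' HTSeq step, 1 column a library. Whether that step used strand was not given in the sources used here. Of 32285 genes 10671 had no count, and 32235 identifiers were found in GENCODE M21, which gave positions and exon lengths.

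Groups and replicate numbers came from the labels. Counts were tested with edgeR 4.0.16 in R 4.3.3 (limma 3.58.1): TMM factors, filterByExpr, quasi-likelihood F-test, Benjamini-Hochberg adjustment over all genes tested, called at 0.05. A fit of the 3 groups tested 12847 genes, and a fit of the 6 cells of group by number set tested 13356. The SE is the log2 change divided by the square root of F. The scripts were tested on simulated counts. No 2 libraries had counts alike enough to be one sample. Ratios of pooled counts carry exact 95% intervals.

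The genes and lists were chosen with earlier results of these data known. Genes given by library are those called, with the smallest p over all libraries and at most 3 a role, to a limit of 15. Tk1 was added after its values were seen, and Spc25 for its difference between the sets. Same-numbered libraries of different groups deviated together from the group means (18 pairs, r = 0.231 to 0.654, median 0.487), about as much as libraries of other numbers in the same set (36 pairs, median 0.529). Taken from the means within each set, the medians were -0.046 and 0.0092, so the likeness went with the set and not with the number. The number was fitted as a block as an alternative. Alternatives were other scalings and filters, DESeq2 1.42.0, limma voom, robust dispersion, the number set as a covariate, and leaving out libraries.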

Additional observations from a re-analysis of the deposited data

Results flagged for a closer look

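Of 48 sets of 6 libraries (16 division genes in 3 groups), 14 held a library whose gap to the nearest other exceeded, as a share of the range, a limit that chance passes in about 1 of 20 sets of alike libraries. Every group joins both number sets and the 16 genes moved together, so the number of flags is not compared with chance. Space 4 stood out in 10 of them, as the highest of the Space libraries, with gaps of 0.819 of the range for Mki67, 0.683 for Top2a, 0.735 for Cdk1, 0.674 for Ccna2, 0.672 for Ccnb2, 0.768 for Aurka, 0.722 for Plk1, 0.677 for Ube2c, 0.781 for Racgap1 and 0.717 for Rrm2. The other flags were BDF1 3 for Cdk1 (0.881), Ground 4 for Cdc20 (0.693), BDF1 6 for Tpx2 (0.628) and BDF1 4 for Ckap2 (0.721).

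The change from BDF1 to pups differed between numbers 4 to 6 and numbers 1 to 3, by the interaction test in edgeR, for Ube2c by 3.98, for Kif20a by 3.36, for Ccnb2 by 3.33, for Spc25 by 1.82 and for Tk1 by -1.28, all on the log2 scale. Their adjusted p values stand beside the results above. On leaving out each of the 18 libraries in turn, the call was kept in all 18 fits for Kif20a, lost in 1 for Ube2c, in 10 for Spc25, in 12 for Ccnb2 and in 13 for Tk1.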

How the results depend on the processing

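No division gene called in any of these comparisons changed sign under an alternative in which it was tested. In numbers 4 to 6, where 32 division genes were called, the alternatives other than leaving out libraries gave 27 to 37, and leaving out each library gave 25 to 38, whereas leaving out both Space 4 and Space 6 gave 21. Scaling by total counts moved the median of all genes there to -0.43 and left 434 genes higher and 6534 lower, against 1281 and 1224 with TMM, while the division genes stayed 2.61 above that median and 29 of them were higher and 1 lower, Incenp and Cenpa being lost. With the replicate block 29 were called there, with Incenp, Cenpa and Kif23 lost.

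The counts over all libraries were less stable, and the share of all genes called moved with them in part, so the share is given in brackets, and ranges on leaving out each library have the number of all genes called beside them. For Space against BDF1 (3, 3.8% of all genes) they were 14 with DESeq2 (8.02%), 1 with voom (10.2%), 8 with the replicate block (6.02%), 12 with the number set as covariate (10.4%), 1 without Space 4 and Space 6 (1.58%), 1 without Space 4 and Ground 4 (2.4%, a choice made after seeing the data), and 1 to 5 on leaving out each library (231 to 593 genes). For Ground against BDF1 (4, 3.81%) they were 1 without a filter (1.01%), 2 with a filter of at least 1 CPM (4.25%), 14 with DESeq2 (8.46%), 2 with voom (4.29%), 11 with the replicate block (6.56%), 13 with the set as covariate (11.2%), 2 with robust dispersion (3.67%), 10 without Space 4 and Space 6 (4.67%), and 1 to 7 (141 to 667 genes). For all pups (7, 7.16%) they were 3 with the 1 CPM filter (7.66%), 18 with DESeq2 (11.7%), 2 with voom (10.7%), 11 with the replicate block (10.4%), 16 with the set as covariate (15.3%), 4 without Space 4 and Space 6 (4.88%), 4 without Space 4 and Ground 4 (6.23%), and 1 to 12 (391 to 964 genes).

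Without Space 4, Ground 5 and Ground 6, also chosen after seeing the data, they were 1 for Space (3.26%), 1 for Ground (2.33%) and 4 for all pups (6.19%), and 2 in pups 1 to 3 (9.03%), in Ground 1 to 3 (5.02%) and in BDF1 between the sets (20.1%).

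For the difference between the sets (5, 5.1%) the counts were 16 with DESeq2 (8.84%), 10 with voom (12.4%), 2 with the replicate block (2.49%), 2 without Space 4 and Space 6 (2.91%), and 1 to 12 (293 to 1054 genes). In pups of numbers 1 to 3 (1, 4.69%) they were 2 with DESeq2 (8.08%), 3 with voom (15.3%), 2 without Space 4 and Ground 4 (8.36%), and 0 to 2 (179 to 789 genes); in Space 1 to 3 (1) they were 0 to 1 (201 to 769 genes); in Ground 1 to 3 (0, 1.92%) they were 1 with DESeq2 (4.63%), 3 with voom (8.21%), 1 without Space 4 and Space 6 (2.27%), 2 without Space 4 and Ground 4 (4.18%), and 0 to 1 (35 to 384 genes). In Space 4 to 6 (26, 11.9%) they were 1 without Space 4 and Space 6 (1.12%), where 1 Space library is left and is assumed to vary like the rest, 17 without Space 4 and Ground 4 (8.3%), and 17 to 34 (636 to 1940 genes). In Ground 4 to 6 (30) they were 22 to 36 (1114 to 2386 genes), and for Space against Ground in those numbers (0) 2 without Space 4 and Ground 4 (9.1%). Between the sets they were 31 to 41 in pups (35; 3961 to 4736 genes) and 1 to 2 in BDF1 (1; 1065 to 2207 genes), the latter 2 with DESeq2 (17.4%), with voom (28.1%), and without Space 4 and Space 6 (14.8%) or Ground 4 (19.6%). The cause of these shifts was not tested. The block changed no other count by over 1.5 times. Low counts limit the 6 genes not tested in numbers 4 to 6.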
